A study of Mus musculus with 8 samples.

Results

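The 39 protein-coding Hox genes of the mouse were followed in vagal ganglia of mice given HDM or saline. They were taken by a rule on names, out of 55335 genes in the table of counts. The rule keeps genes of GENCODE M21 whose symbol is Hoxa, Hoxb, Hoxc or Hoxd with a number from 1 to 13. It found 11 genes of cluster HoxA, 10 of HoxB, 9 of HoxC and 9 of HoxD. The rule uses no expression value, but the members were chosen with earlier results of these data known. Of the 39, 15 were abundant enough to be tested and 24 were not; of these 24, 9 had at least 1 count and 15 had none in any library.

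Hox genes encode homeodomain transcription factors that give cells along the head-to-tail axis of the embryo their position. They lie in 4 clusters, and the number of a gene, its paralog number, marks its place in the cluster: low numbers are switched on early and reach far forward into the hindbrain, and high numbers are used in the trunk, limbs and tail. The vagal ganglia form beside the caudal hindbrain. In mice they join a nodose part, whose neurons come from a placode, and a jugular part, whose neurons come from the neural crest.

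All animals were wild type and were sampled 1.5 h after challenge number 4, with either HDM (in allergy research, short for house dust mite) or saline. There were 4 libraries in each group, each from 6 to 8 ganglia pooled over 3 to 4 mice. The labels number the batches 1 to 4, with 1 HDM and 1 saline library in each; they do not give the age of the mice or the dose. Library totals lay between 23952130 and 31281281 counts.

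Vagal identity was checked against markers. The 11 nodose neuron markers summed to 1314 to 1521 CPM (the standard depth-scaled count, here with TMM factors), and Prdm12, a transcription factor of jugular neurons, was present at 81.7 to 105 CPM. The summed level of 8 skeletal muscle markers lay below 4.1 CPM in all 8 libraries, and that of 6 thyroid and parathyroid markers was 3.47 to 4.93 CPM. Markers of central nervous system glia (8 genes) summed to 42.2 to 58.6 CPM. The part of such glia or of hindbrain tissue in the Hox values was not tested. Sympathetic neuron markers were also present: the 15 genes summed to 500 to 826 CPM in 7 libraries and to 1457 CPM in HDM 4, which stood apart.

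Hox RNA of these ganglia came from the low-numbered end of the clusters. Of the 15 members with paralog numbers 1 to 5, 13 were tested, whereas the 12 members numbered 10 to 13 had 0 counts in all 8 libraries. A count of 0 allows up to 3 counts of a library's total, which is 0.0959 to 0.125 CPM, and this limit covers counting error only. The highest-numbered member tested was Hoxa4 in HoxA, Hoxb6 in HoxB, Hoxc5 in HoxC and Hoxd8 in HoxD. In HoxB the edge was steep: Hoxb6 had 3765 counts over the 8 libraries, and Hoxb7, whose annotated end lies 2313 bases before the start of Hoxb6, had 10. Hoxb8 had 7 counts, Hoxb9 had 4 and Hoxb13 had 0. In HoxA, Hoxa5 had 65 counts (4 to 13 per library), Hoxa6 and Hoxa7 had 1 each, and Hoxa9 to Hoxa13 had 0. In HoxC, Hoxc6 had 9 counts and Hoxc8 to Hoxc13 had 0. In HoxD, Hoxd9 had 62 counts (3 to 15 per library), and Hoxd10 to Hoxd13 had 0. At the other end, Hoxb1 had 1 count in all, in contrast to Hoxd1 with 3131.

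**Figure D1:**
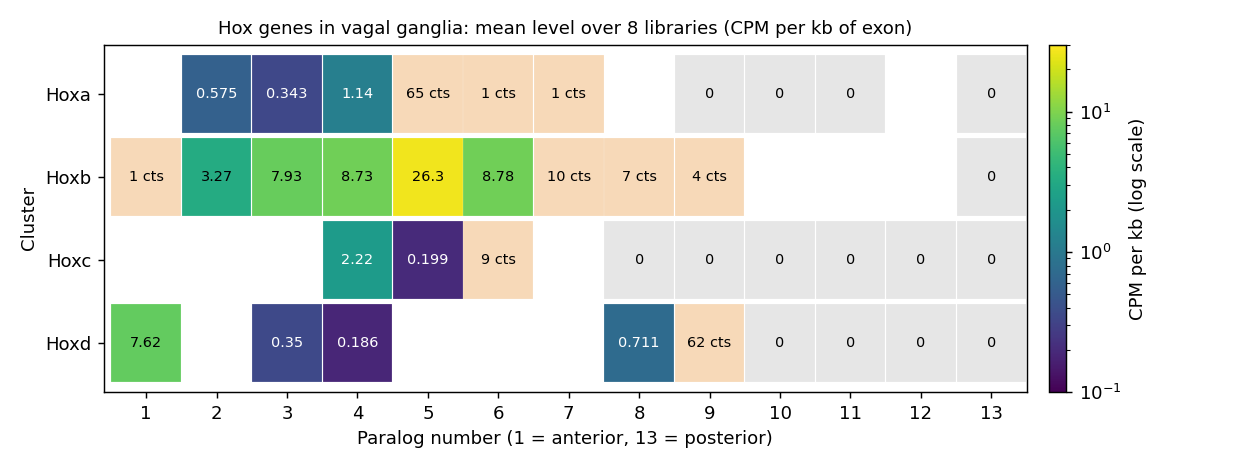
Mean level of each Hox gene over 8 libraries, as CPM per kb of exon on a log colour scale, by cluster (rows) and paralog number (columns). Orange squares give the total counts (cts) of members too low to test, grey squares mark members with 0 counts, and blank places hold no gene or are not shown; the filled part ends at Hoxa4, Hoxb6, Hoxc5 and Hoxd8.

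The DNA before the start site is shown for an expressed and a silent or nearly silent gene of HoxB and of HoxD, because these pairs lie on either side of the edge. The 250 bases before the RefSeq start are printed 5′ to 3′ on the plus strand of GRCm38, with capitals at matches of 3 motifs searched on both strands: TGATNNAT, a form of the joint Hox and Pbx site, TGACAG, a site of Meis and Pknox proteins, and AGGTCA, the half-site of retinoic acid and other nuclear receptors. Hoxb4 (4905 counts) is at chr11:96318017-96318266 and Hoxb8 (7 counts) at chr11:96281655-96281904, and Hoxd8 (431 counts) is at chr2:74704365-74704614 and Hoxd10 (0 counts) at chr2:74691641-74691890.
Hoxb4: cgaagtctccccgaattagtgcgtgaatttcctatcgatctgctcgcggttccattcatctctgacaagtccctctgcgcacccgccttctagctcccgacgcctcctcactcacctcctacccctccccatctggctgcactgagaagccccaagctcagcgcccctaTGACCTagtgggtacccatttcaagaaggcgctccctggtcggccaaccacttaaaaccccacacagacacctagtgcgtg
Hoxb8: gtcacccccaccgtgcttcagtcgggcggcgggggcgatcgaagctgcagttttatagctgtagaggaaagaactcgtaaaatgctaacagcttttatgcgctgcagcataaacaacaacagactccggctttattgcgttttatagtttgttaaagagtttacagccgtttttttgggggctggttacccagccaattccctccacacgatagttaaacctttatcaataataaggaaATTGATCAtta
Hoxd8: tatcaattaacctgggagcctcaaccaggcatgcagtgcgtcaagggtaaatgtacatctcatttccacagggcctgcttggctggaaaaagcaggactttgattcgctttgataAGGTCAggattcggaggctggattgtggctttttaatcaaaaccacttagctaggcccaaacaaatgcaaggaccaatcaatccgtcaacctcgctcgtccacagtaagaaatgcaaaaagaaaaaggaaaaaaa
Hoxd10: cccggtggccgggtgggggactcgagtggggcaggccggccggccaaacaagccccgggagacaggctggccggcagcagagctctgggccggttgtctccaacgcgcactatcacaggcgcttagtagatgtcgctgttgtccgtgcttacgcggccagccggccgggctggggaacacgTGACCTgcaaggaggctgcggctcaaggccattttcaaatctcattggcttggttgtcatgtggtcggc

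The AGGTCA half-site was found once before Hoxb4, Hoxd8 and Hoxd10 and not before Hoxb8, and 14% of 32851 mouse promoter windows of the same length hold it. TGATNNAT was found once before Hoxb8 and in 7.68% of all windows, and TGACAG was in none of the 4 and in 15.9% of all. The number of CpG dinucleotides was 14 before Hoxb4, 12 before Hoxb8, 6 before Hoxd8 and 20 before Hoxd10, beside a median of 6 over all windows. In these pairs, neither CpG number nor these motifs set the expressed member apart from the silent one in the same direction in both clusters. RefSeq windows were at hand for 22 of the 39 members, but not for Hoxb5, Hoxb6 or Hoxb7. Among the 22, AGGTCA was found before the tested Hoxb4, Hoxc4, Hoxd3, Hoxd4 and Hoxd8 and before the silent Hoxd10. It was absent before the tested Hoxa2, Hoxa3 and Hoxd1 and before every other untested member. A link between the motifs and expression was not tested.

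Hoxb5 was the most abundant Hox transcript per length. Its mean over the 8 libraries was 26.3 ± 5.29 CPM per kb of exon (SD, n = 8), and its range did not overlap that of any other member. Hoxb6 (8.78 ± 2.02), Hoxb4 (8.73 ± 1.27), Hoxb3 (7.93 ± 1.12) and Hoxd1 (7.62 ± 0.644 CPM per kb) followed, with overlapping ranges. Next came Hoxb2 (3.27 ± 0.591) and Hoxc4 (2.22 ± 0.617 CPM per kb), whose ranges overlapped although Hoxb2 was above Hoxc4 in 8 of 8 libraries. Hoxa4, at 1.14 CPM per kb, and the other 7 tested members, down to Hoxd4 at 0.186, were lower. HoxB genes made up 80.7 to 85.8% of the summed Hox CPM of a library, and Hoxb5 alone 35.4 to 42.1%. By paralog group, the summed level per kb was highest for group 5 (26.6 ± 5.33) and group 4 (12.3 ± 1.75), and it was 0.0303 ± 0.0301 for group 7.

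The order depends on length where exons overlap. Of the 39 members, 16 share exon bases with another listed gene, 9 on the same strand and 10 on the opposite one. The antisense gene Hoxb3os covers much of Hoxb3, and over the exon bases of Hoxb3 that are free of other genes its level would be 16.9 CPM per kb, above Hoxb6 and Hoxb4, if no read in shared bases was counted. Hoxd3 and Hoxd4 share exons on the same strand, and on the same assumption Hoxd3 would be at 0.941 and Hoxd4 at 0.390 CPM per kb. The strand setting of the counting is not given in the sources used here, so it is not known whether reads in bases shared with an antisense gene were counted for the Hox gene, and the order per kb is uncertain to that extent.

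The comparison of HDM with saline asked which transcripts differ in the ganglia soon after allergen exposure. No Hox gene passed over all genes: 0 of the 15 tested members had an adjusted p under 0.05 in edgeR's quasi-likelihood test, against 1.38% of all 17618 genes tested. Limma-voom also called 0 members, beside 1.21% of all genes. DESeq2 called 3 (Hoxb4, Hoxb6 and Hoxc4; it gave no adjusted p for 8 of the 15), beside 4.78% of all genes. At an unadjusted p under 0.05, 8 of the 15 differed, 7 with a higher mean in HDM and 1 with a lower one; over all genes these shares were 18.1% in either direction and 10.4% higher. The log2 fold change (log2 ratio), HDM over saline, was above 0 for 11 of the 15 with a median of 0.23, beside 48.5% and a median of −0.006 over all genes. After a correction for GC content it was above 0 for 9 of the 15 with a median of 0.15, and with at least 1 CPM in 4 libraries, which left 13 members, for 9 with a median of 0.068. The members of a cluster are neighbours measured in the same libraries, so these counts are not independent observations.

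With the replicate number as a block, Hoxb4 and Hoxb5 passed as higher in HDM (edgeR adjusted p = 0.0401 and 0.0174), that is, 2 of the 15 members beside 3.01% of all genes. With the block and the GC correction together 0 passed (Hoxb5 adjusted p = 0.074, Hoxb4 0.152), beside 0.216% of all genes; 7 members had an unadjusted p under 0.05, beside 14.7% of all genes. With the GC correction alone, 0% of all 17602 genes passed in edgeR, the members included, and 6 members and 2138 genes in all had an unadjusted p under 0.05. Without HDM 3, 6 members passed in edgeR, all higher in HDM (Hoxb2, Hoxb3, Hoxb4, Hoxb5, Hoxb6 and Hoxc4), beside 2.1% of all genes. HDM 3 was the lowest HDM library for each of these 6, so leaving it out raised their HDM means. Without any other single library 0 members passed, beside 0 to 178 genes higher and 0 to 32 lower. When all of batch 3 was left out, 0 members passed (edgeR adjusted p = 0.053 for Hoxb6 and 0.0538 for Hoxb4). Over all genes, 19 were then higher and 5 lower. With no filter on low counts 4 passed beside 2.26% of all genes, and at an adjusted p under 0.10 in the filtered fit 3 passed beside 4.02%.

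**Figure D2:**
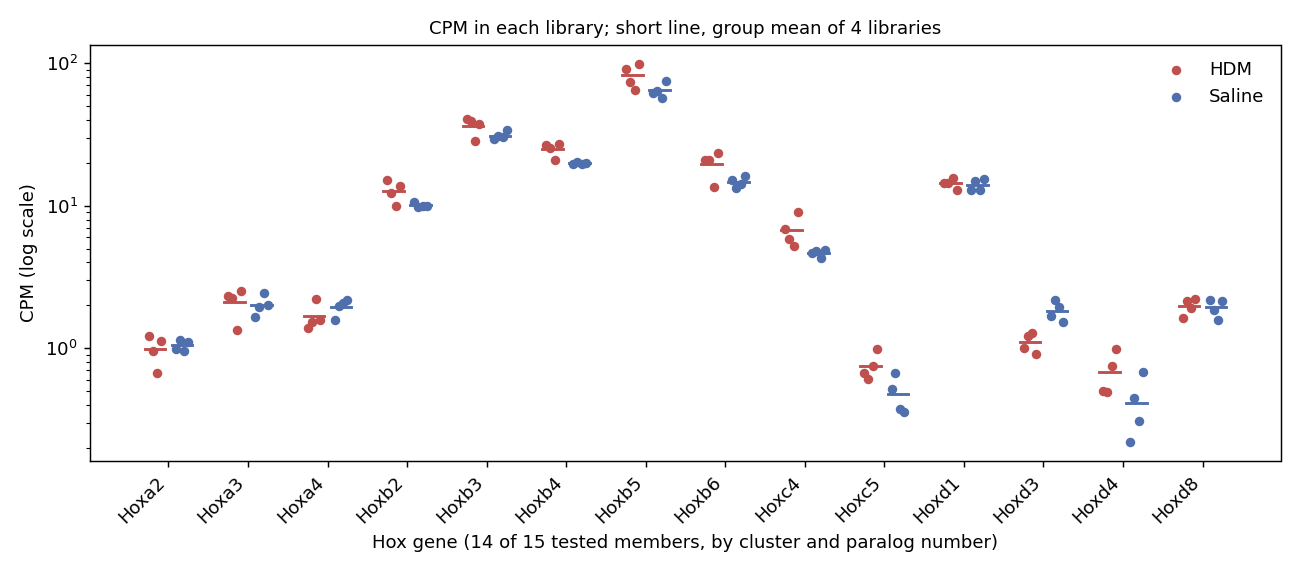
CPM (log axis) of 14 of the 15 tested Hox genes in each HDM (red) and saline (blue) library, with the group mean of 4 libraries as a short line. The HDM points lie above all saline points for Hoxb4 and Hoxc4 and below them for Hoxd3, and overlap for the others.

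HoxB carried the largest differences in absolute level. The 10 genes of the cluster summed to 193, 171, 138 and 201 CPM in HDM 1 to 4 and to 137, 137, 131 and 155 CPM in saline 1 to 4, and HDM was higher in 4 of 4 batches. Hoxb5 (ENSMUSG00000038700, GRCm38 chromosome 11, 96303336 to 96306121), which takes part in the neural crest programme of the gut nervous system, had 90.2, 73.5, 65.2 and 99.3 CPM in HDM 1 to 4. In saline 1 to 4 it had 62.1, 63.5, 56.9 and 75.1 CPM. The groups overlapped, since saline 4 lay above HDM 2 and HDM 3, but HDM was higher in 4 of 4 batches. The log2 fold change of Hoxb5 was 0.35 (SE 0.114; adjusted p = 0.133 in edgeR), and 0.24 without HDM 4 (adjusted p = 0.318). In bulk tissue, fewer cells of a type and less RNA per cell cannot be told apart, and this holds for each comparison here.

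Hoxb4 (ENSMUSG00000038692, chromosome 11, 96318267 to 96321638), a factor known also for expanding blood stem cells, separated the groups. It had 26.5, 25.3, 21.0 and 27 CPM in HDM 1 to 4 and 19.7, 20.1, 19.7 and 20.0 CPM in saline 1 to 4, so the 4 saline libraries were nearly level and the lowest HDM library, HDM 3, lay just above them. Its log2 fold change was 0.33 (SE 0.076; adjusted p = 0.0537 in edgeR) and 0.26 after the GC correction (adjusted p = 0.2). Hoxb4 and Hoxc4 were the 2 tested members with all 4 HDM libraries above all 4 saline libraries, a pattern that 6.25% of all tested genes showed.

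Hoxb6 (chromosome 11, 96292476 to 96301569), the highest-numbered gene of HoxB that was tested, had 21.0, 21.0, 13.6 and 23.4 CPM in HDM 1 to 4 and 15.2, 13.3, 14.3 and 16.1 CPM in saline 1 to 4. HDM 3 lay among the saline libraries, and the other HDM libraries lay above all of them (log2 ratio 0.43 with an SE of 0.132; adjusted p = 0.115 in edgeR). Hoxb3, which helps to pattern the caudal hindbrain, had 40.6, 39, 28.6 and 37.6 CPM in HDM 1 to 4 and 29.3, 30.7, 30.1 and 34.0 CPM in saline 1 to 4. Here too HDM 3 was the lowest of the HDM libraries, below every saline library (log2 ratio 0.23 with an SE of 0.092; adjusted p = 0.208 in edgeR). Hoxb2, a hindbrain gene that Egr2 switches on in the embryo, had 15.1, 12.2, 9.92 and 13.7 CPM in HDM 1 to 4 and 10.6, 9.81, 9.91 and 9.92 CPM in saline 1 to 4. HDM 3 again matched the saline libraries (log2 ratio 0.34 with an SE of 0.113; adjusted p = 0.137 in edgeR). HDM 3 was the lowest HDM library for 8 of the 15 tested members, among them all 5 of HoxB, and Hoxb6 went to a log2 fold change of 0.57 without it.

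In HoxC, Hoxc4 (ENSMUSG00000075394, chromosome 15, 103018934 to 103036852), a gene of the cervical level, had 6.86, 5.86, 5.24 and 9.09 CPM in HDM 1 to 4 and 4.67, 4.84, 4.27 and 4.86 CPM in saline 1 to 4. HDM 4 was well above the other 7 libraries. The log2 fold change was 0.54 (SE 0.154; adjusted p = 0.0967 in edgeR), and it was 0.36 without HDM 4 (adjusted p = 0.236). Hoxc5 had 0.669, 0.609, 0.754 and 0.981 CPM in HDM 1 to 4 and 0.515, 0.669, 0.376 and 0.357 CPM in saline 1 to 4, so the groups overlapped and the highest value was again in HDM 4 (log2 ratio 0.65 with an SE of 0.295; adjusted p = 0.266 in edgeR). Hoxc6, too low to test, had 3, 1, 1 and 4 counts in HDM 1 to 4 and 0 counts in each saline library, at or near the limit of 3 counts. When all genes with a count were fitted, its adjusted p in edgeR was 0.114.

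In HoxD 0 of the 4 tested members passed. Hoxd3 (ENSMUSG00000079277, chromosome 2, 74711927 to 74748442), which acts in the neck vertebrae and the caudal hindbrain, had 1.00, 1.22, 1.27 and 0.905 CPM in HDM 1 to 4. In saline 1 to 4 it had 1.69, 2.17, 1.95 and 1.52 CPM. It was the only tested member with all saline libraries above all HDM libraries, as were 4.39% of all tested genes. Its log2 fold change was −0.74 (SE 0.197; adjusted p = 0.0773 in edgeR; −0.82 and 0.148 after the GC correction). Hoxd4 had 0.502, 0.494, 0.754 and 0.981 CPM in HDM 1 to 4 and 0.221, 0.446, 0.308 and 0.681 CPM in saline 1 to 4, the widest relative range of the tested members, at 6 to 26 counts per library. Its log2 fold change was 0.70 (SE 0.37; adjusted p = 0.33 in edgeR). Since Hoxd3 and Hoxd4 share exons, a read that falls in the shared part can be lost to both or given to either.

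Hoxd1 (ENSMUSG00000042448, chromosome 2, 74762980 to 74765142), a gene that pain-sensing neurons of the mouse use for their axon pattern, was the most abundant member outside HoxB and one of the steadiest. It had 14.5, 14.5, 15.6 and 12.8 CPM in HDM 1 to 4 and 12.8, 14.9, 12.8 and 15.5 CPM in saline 1 to 4. Its highest library was 1.22 times its lowest, the smallest such ratio of the tested members, and HDM 4, highest for 8 of the 15, was among its 3 lowest. The log2 fold change was 0.04 (SE 0.089; adjusted p = 0.874 in edgeR), and −0.02 after the GC correction. Hoxd8 had 1.63, 2.13, 1.91 and 2.23 CPM in HDM 1 to 4 and 2.17, 1.85, 1.57 and 2.14 CPM in saline 1 to 4, with full overlap (log2 ratio 0.03 with an SE of 0.174; adjusted p = 0.943 in edgeR; −0.04 after the GC correction).

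HoxA genes were low, and those described here showed no common direction. Hoxa3, needed for the thymus, the parathyroid and nerve IX of the embryo, had 2.34, 2.24, 1.35 and 2.53 CPM in HDM 1 to 4 and 1.66, 1.94, 2.43 and 2.01 CPM in saline 1 to 4 (log2 ratio 0.07 with an SE of 0.204; adjusted p = 0.885 in edgeR). Its sign turned to −0.02 without HDM 4. Hoxa4 had 1.38, 1.52, 2.22 and 1.58 CPM in HDM 1 to 4 and 1.58, 1.97, 2.08 and 2.17 CPM in saline 1 to 4, and HDM 3, low for HoxB, was its highest library (log2 ratio −0.22 with an SE of 0.191; adjusted p = 0.573 in edgeR). Hoxa2, a gene of the second branchial arch and the hindbrain, ranged over the 8 libraries from 0.675 CPM in HDM 3 to 1.21 CPM in HDM 1 (log2 fold change −0.08, adjusted p = 0.884).

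**Figure D3:**
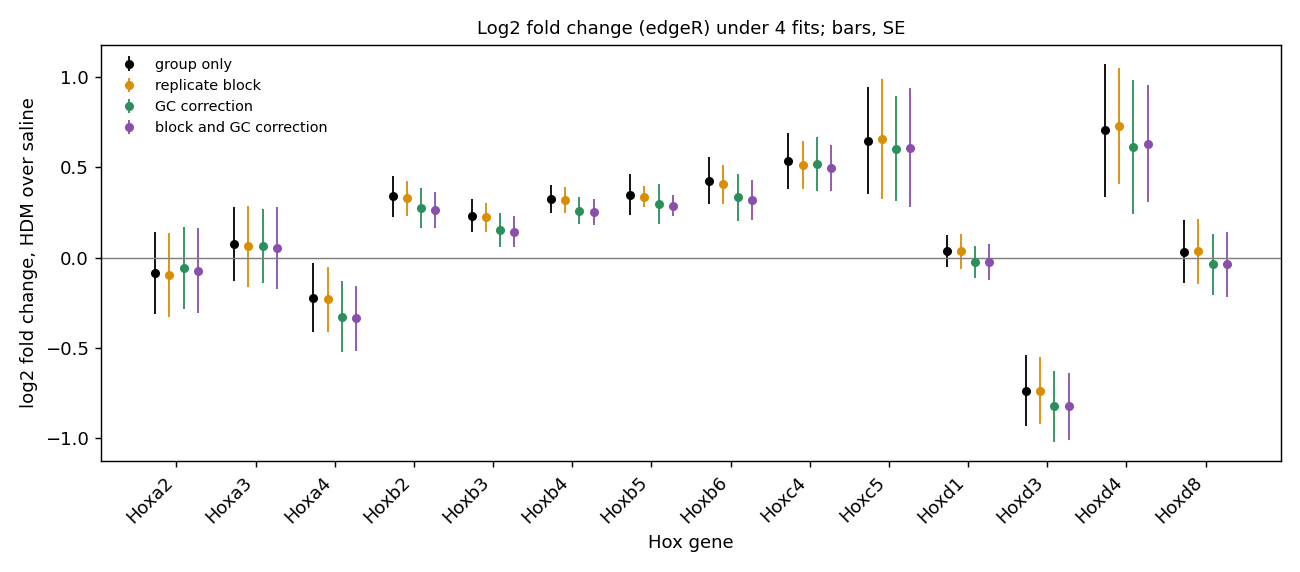
Log2 fold change, HDM over saline, of 14 of the 15 tested Hox genes with its SE, from edgeR with group only, with the replicate block, with the GC correction and with both. The 5 HoxB genes lie between 0.145 and 0.43 in all 4 fits and Hoxd3 between −0.82 and −0.74, while Hoxd1 and Hoxd8 turn sign with the GC correction.

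Levels of neuron markers were set beside those of the Hox genes. The 11 nodose markers summed to 1324 to 1521 CPM in HDM and 1314 to 1469 CPM in saline; 0 passed the edgeR threshold (4 at an unadjusted p under 0.05), or 3 as higher with the block, and DESeq2 and limma-voom called 0. The 8 jugular markers summed to 932 to 1100 CPM in HDM and 927 to 1009 CPM in saline, and 0 passed the edgeR threshold (5 at an unadjusted p under 0.05; DESeq2 2, limma-voom 0), or 2 as higher and 1 as lower with the block. Over all genes 18.1% had an unadjusted p under 0.05 in edgeR, and DESeq2 called 4.78%. With the block 3.01% of all genes were higher, and 182 of 17618 were lower. With the block and the GC correction together 1 jugular marker was lower and 0 nodose markers passed, beside 0.216% of all genes. The part of these markers in the Hox values was not tested.

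Sympathetic markers were highest in HDM 4. All 15 had a log2 fold change above 0, with a median of 0.78, beside 48.5% and a median of −0.006 over all genes. In edgeR 0 passed and 10 had an unadjusted p under 0.05, beside 18.1% of all genes. Limma-voom called 0, and DESeq2 called 1, beside 4.78% of all genes. Dbh, the enzyme that makes noradrenaline, had 60.3, 56.0, 46.5 and 176 CPM in HDM 1 to 4 and 15.4, 62.3, 43.0 and 23.4 CPM in saline 1 to 4. The levels of Th, the first enzyme of catecholamine synthesis, were 189 CPM in HDM 4 and 78.2 to 112 CPM elsewhere, and those of Npy were 38.2 CPM in HDM 4 and 1.95 to 20.6 CPM elsewhere. HDM 4 was also the highest library for 8 of the 15 tested Hox genes: Hoxb4, Hoxb5, Hoxb6, Hoxc4, Hoxc5, Hoxd4, Hoxa3 and Hoxd8. It was not for the others, among them Hoxb2 and Hoxb3, which were highest in HDM 1 (15.1 and 40.6 CPM). Fibroblast markers summed to 852 to 928 CPM in HDM and 904 to 1247 CPM in saline. Of these, Dcn, a matrix proteoglycan gene, had 386 to 453 CPM in HDM and 441 to 640 CPM in saline, and Col1a1, a collagen gene, 31.4 to 52.7 CPM over the 8 libraries. In all, 1 of 10 passed, Ogn, a matrix protein gene (log2 ratio −0.44, adjusted p = 0.039 in edgeR; 0.198 after the GC correction and 0.0993 with block and GC correction). In this list 3 were lower with the block, beside 182 of 17618 genes in all. DESeq2 called 3, beside 4.78% of all genes, and limma-voom 1, beside 1.21%. Of 8 markers each of myelinating Schwann cells and of satellite glia, 1 passed in each list, lower in HDM, beside 1.38% of all genes in either direction. That of Schwann cells was Pmp22, a myelin protein gene (log2 ratio −0.23, adjusted p = 0.0336 in edgeR). Its adjusted p in edgeR was 0.0547 after the GC correction and 0.0373 with block and GC correction, which 0.216% of all genes passed. The choice to name Ogn and Pmp22 was made with their values in view. The part of these cells in the Hox values was not tested.

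**Figure D4:**
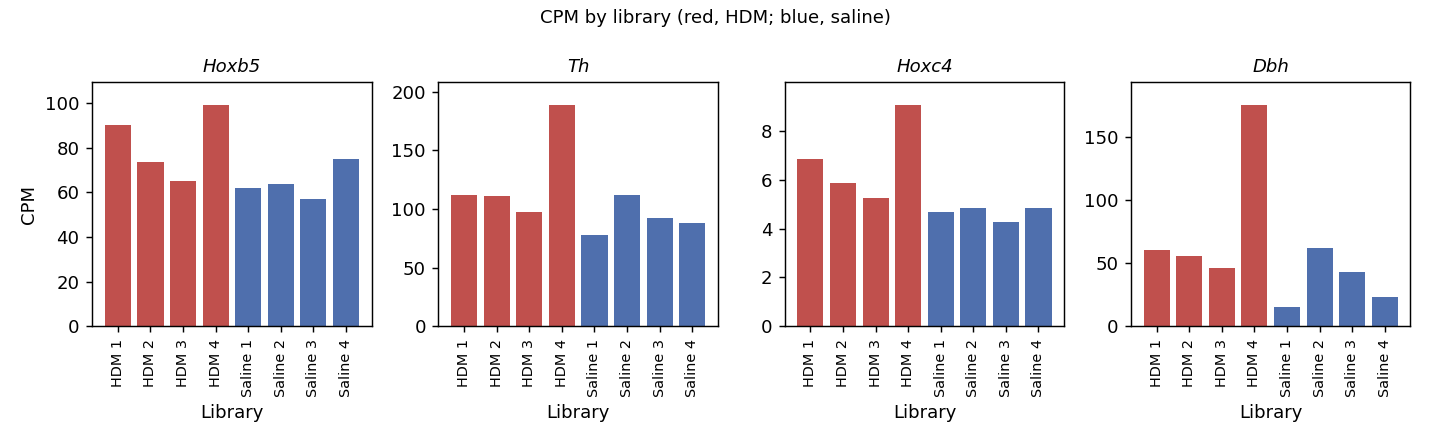
CPM by library of Hoxb5, Th, Hoxc4 and Dbh (bars from 0; red, HDM; blue, saline). HDM 4 is the highest library in all 4 panels, and Dbh is at 176 CPM there and at 62.3 CPM or below elsewhere. Hoxb5 and Hoxc4 are among the 8 of 15 tested Hox genes that were highest in HDM 4. The others, not drawn, were highest in other libraries, among them Hoxb2 and Hoxb3 in HDM 1.

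The clusters also hold noncoding RNAs. Of 23 listed, 18 were in the table, 10 of these had 0 counts, and 5 were tested. Those at 0 included Hotair and Hottip of the high-numbered ends. They also included microRNA genes such as Mir196b and Mir615, and the libraries were made from mRNA. In edgeR 0 of the 5 passed and 1 had an unadjusted p under 0.05, beside 18.1% of all genes. DESeq2 and limma-voom called 0. Hoxb5os, antisense to Hoxb5, had 1.63, 1.1, 0.873 and 1.58 CPM in HDM 1 to 4 and 0.993, 0.605, 0.547 and 0.584 CPM in saline 1 to 4, higher in HDM in 4 of 4 batches (log2 ratio 0.93 with an SE of 0.279; adjusted p = 0.108 in edgeR, and 0.0607 with the block). The lowest HDM library was HDM 3, as for Hoxb5. Haglr, a long noncoding RNA, shares exon bases with Hoxd3 on the opposite strand. It had a mean of 7.36 ± 1.40 CPM with HDM and of 8.61 ± 0.412 with saline (SD over 4 libraries). Its log2 ratio was −0.23 (adjusted p = 0.34 in edgeR). Hotairm1 had a log2 fold change of −0.25, Hoxaas2 −0.11 and Hoxb3os 0.10, and none of these passed. Hoxaas2 shares exon bases with Hoxa3 on the opposite strand.

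Hox proteins bind DNA with cofactors of the TALE class, and all 11 listed TALE genes were expressed. In edgeR 0 of the 11 passed, with a median log2 fold change of −0.02, and 3 had an unadjusted p under 0.05, beside 18.1% of all genes. Limma-voom called 0, and DESeq2 called 1, Pbx2, beside 4.78% of all genes. Pbx2 had a mean of 52.1 ± 1.64 CPM with HDM and of 46 ± 2.37 with saline (SD over 4 libraries; log2 ratio 0.18; adjusted p = 0.0817 in edgeR), Meis3 0.15, Pknox2 −0.14 and Tgif1 −0.33 on the log2 scale. Their summed level differed little between libraries, at 322 to 330 CPM in HDM and 320 to 335 CPM in saline.

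Polycomb proteins keep Hox genes silent and Trithorax proteins keep them active. In edgeR 0 of 32 Polycomb genes passed and 5 had an unadjusted p under 0.05, beside 18.1% of all genes. Limma-voom called 0, and DESeq2 called 1, beside 4.78% of all genes. With the block 1 passed as higher, beside 3.01% of all genes. This was Phc2, a subunit of Polycomb repressive complex PRC1 (log2 ratio 0.16, adjusted p = 0.0638 in edgeR). Its adjusted p in edgeR was 0.0481 with the block and 0.737 with block and GC correction. Ring1, Phc3 and Ezh2, the methyltransferase of Polycomb, had 0.25, −0.14 and −0.32. Of 19 Trithorax and histone demethylase genes 2 were higher and 0 lower in HDM in edgeR, beside 1.38% of all genes in either direction. At an unadjusted p under 0.05 there were 5 of the 19, beside 18.1% of all genes. Smarca4, the motor of a chromatin remodelling complex, had a mean of 112 ± 5.28 CPM with HDM and of 93.2 ± 4.85 with saline (log2 ratio 0.27 with an SE of 0.050; adjusted p = 0.0234 in edgeR). Men1, whose product menin guides Kmt2a to Hox genes, had 56.1 ± 2.49 and 47.0 ± 1.63 CPM (log2 ratio 0.26 with an SE of 0.048; adjusted p = 0.0254 in edgeR), and Kmt2a itself had −0.12 (adjusted p = 0.2). Both were also called by DESeq2 and limma-voom, beside 4.78% and 1.21% of all genes. After the GC correction, where 0 genes of the whole table passed, neither passed (Smarca4 0.19, adjusted p = 0.198; Men1 0.14, 0.264).

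Retinoic acid switches on Hox genes of low paralog number in the embryo. Of 18 tested genes of its pathway 1 was higher and 0 lower: the receptor gene Rxra had a mean of 32.9 ± 2.13 CPM with HDM and of 27.2 ± 1.67 with saline (log2 ratio 0.28 with an SE of 0.064; adjusted p = 0.0499 in edgeR; 0.17 and 0.335 after the GC correction, where 0 genes passed). The 1 call of 18 stood beside 1.38% of all genes, and 6 of the 18 had an unadjusted p under 0.05 in edgeR, beside 18.1%. DESeq2 called 1 gene of this list, Rxra, beside 4.78% of all genes, and limma-voom 0. Rarb, a receptor gene that retinoic acid induces, had −0.36, Stra6, the retinol transporter, −0.37 and Rxrb 0.15, and these did not pass. Of 9 tested regulators that act above Hox genes in the hindbrain 0 passed the edgeR threshold (3 at an unadjusted p under 0.05; DESeq2 0, limma-voom 0). Gdf11, a signal for trunk and tail Hox genes, had 19.6, 21.5, 19.9 and 19.1 CPM in HDM 1 to 4 and 18.5, 16.7, 16.2 and 17.5 CPM in saline 1 to 4. Its log2 ratio was 0.22 with an SE of 0.068 (adjusted p = 0.121 in edgeR). All its HDM libraries lay above all saline libraries, as for 6.25% of all tested genes, Rxra, Smarca4 and Men1 among them. Irx3 had a log2 fold change of 0.72 and Sall4 of 0.27.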

How the data were processed

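RNA of vagal ganglia was measured in 4 HDM and 4 saline libraries. Per the labels' protocols, they were stranded mRNA libraries read as 50 bp pairs. The authors deposited counts per gene, made with featureCounts on GRCm38 (mm10) per the submitters' processing notes. The aligner, its settings, tool versions and whether strand was used are not stated there. The exon length of each gene comes from the same deposited table, per the file headers. Of 55335 genes, 55154 had a symbol in GENCODE M21, and all 39 Hox genes had the same span there.

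Genes were kept with filterByExpr (17618 genes), scaled with TMM and tested with edgeR 4.0.16 (R 4.3.3) by the quasi-likelihood test, 2-sided, on group alone; p-values were adjusted by Benjamini-Hochberg over all genes, and 0.05 was the threshold for a call. Levels are CPM with TMM factors, and CPM per kb divides by exon length. p-values measure the spread between pools of mice.

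The labels make the replicate number a batch, so it pairs libraries, and a fit with it as a block was run. Deviations of same-numbered libraries correlated by −0.045 to 0.21. The GC correction added an offset per library from a natural spline of log2 CPM over transcript GC (4 degrees of freedom; only genes whose mean log2 CPM exceeded 3 shaped it). DESeq2 1.42.0, limma-voom (limma 3.58.1), other size factors and filters, and leaving out each library or batch were the other alternatives.

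Members, lists and alternatives were chosen with earlier results of these data known. Values in every library are given for the 6 members highest per kb, the 6 with the smallest p, those called with the block, the 6 with the widest range and the highest-numbered tested member of each cluster. Of each list up to 4 members with the smallest p are named, and the noncoding RNAs that were tested. Some genes that these rules would name, 1 member among them, are not reported here, though the counts include them. The tests were checked on simulated counts with known changes, and the recovery is not reported here. The simulation drew each gene on its own, with no batch, GC or other effect shared by the genes of a library. Promoter sequences are from RefSeq (GRCm38.p6).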

Additional observations from a re-analysis of the deposited data

Results flagged for a closer look

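Among the 15 tested Hox genes in 2 groups (30 sets of 4 libraries), 1 set held a library far from the others. Hoxb2 had 10.6 CPM in saline 1 and 9.81 to 9.92 CPM in the other saline libraries, a gap of 0.863 of the group's range, above Dixon's 95% critical value. Chance flags about 1 in 20 such sets.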

How the results depend on the processing

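Of the 15 tested Hox genes, 11 kept the sign of their log2 fold change in each alternative that tested them (20 or 21), and 4 with values near 0 did not. Without single libraries, Hoxd1 ran from −0.011 to 0.086, Hoxd8 from −0.053 to 0.111, Hoxa3 from −0.024 to 0.238 and Hoxa2 from −0.191 to 0.061. Without whole batches, Hoxd1 had −0.01 without batch 1 and −0.047 without batch 3, Hoxd8 had −0.028 without batch 2 and −0.036 without batch 3, Hoxa3 had −0.054 without batch 1 and −0.028 without batch 4, and Hoxa2 had 0.019 without batch 3. After the GC correction Hoxd8 had −0.037 and Hoxd1 −0.024, and with the replicate block and the GC correction together −0.036 and −0.023. The number of Hox genes called was 0 in the main test, 2 with the replicate block and 3 in DESeq2. With no filter on low counts it was 4, and at an adjusted p under 0.10 it was 3. It was 0 to 6 without single libraries, the 6 without HDM 3, and the cause was not tested. Without whole batches it was 0 each time, beside 0 to 19 genes of the whole table higher and 0 to 5 lower. The genes called over the whole table were 244 in the main test, 531 higher and 182 lower with the block, 843 in DESeq2, 722 with no filter, 709 at an adjusted p under 0.10 and 376 without HDM 3. The Hox genes called at an adjusted p under 0.10 were Hoxb4, Hoxc4 and Hoxd3; those of the other alternatives were HoxB genes or Hoxc4. The median log2 fold change of the tested members was 0.068 where 1 CPM was required in 4 libraries, which left 13 members, and 0.175 to 0.325 without single libraries. The filter left 15 members. With the replicate block 1 Polycomb gene was called. After the GC correction, without and with the replicate block, 0 Trithorax and demethylase genes and 0 retinoic acid genes were called, and 0 and 38 genes of the whole table. Members with a mean below 3 CPM rest on few counts per library (6 to 26 for Hoxd4), which limits their precision.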
